A study of Homo sapiens with 17 samples.

Results

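The transcript response of PC3M cells to heat shock was followed in cells that carried a non-targeting siRNA (siNT). PC3M is an established, highly metastatic derivative of the PC-3 line of human prostate cancer. The siNT heat shock cells were kept at 42 °C for 1 h and left to recover for 2 h (n = 3 libraries), and the siNT basal cells received no heat (n = 3). Both groups had been transfected with siNT for 72 h, so no untransfected cell was measured. A gene was a member of the comparison where at least 3 of these 6 libraries held 10 or more normalised counts, which kept 9392 of the 13616 genes of the heat shock table. The series holds 17 libraries in all, which also vary JMJD6, an oxygenase that the study links to HSF1, the main transcription factor of the heat shock response. It also includes HSF1 knockout cells. Each library was made with a 3' tag method (QuantSeq FWD), which reads a tag near the 3' end of each captured transcript, so a longer transcript does not give more tags.

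Heat unfolds proteins. In the cytosol, chaperones of the HSP70, HSP40 and HSP90 families hold and refold such proteins, and HSF1, once trimerised, binds heat shock elements in promoters and switches on their genes. The endoplasmic reticulum (ER) has its own sensors (PERK, IRE1 and ATF6), which raise ER chaperones and degradation factors through the ER stress response element and the transcription factors XBP1, ATF6, ATF4 and CHOP.

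Column totals lay between 1630644 and 1726645 normalised counts in the 6 siNT libraries, and log2 values of libraries of the same group correlated across genes at r = 0.967 to 0.977 (0.956 to 0.969 between groups). The depth of a library could be judged only roughly, from the spacing of its low values. It came to 1.77 to 2.58 M reads in the heat shock libraries and 0.844 to 3.96 M in the basal libraries, and it is least certain for basal libraries 2 and 3, where 37.1% and 33.2% of low values lay near whole reads. No gene was at exactly 0 in basal libraries 1 and 3, against 724 genes in basal library 2 and 837 to 1033 in the heat shock libraries. The lowest values thus had unlike floors, and the part of this in genes of low level was not tested. The kallikrein gene KLK2, a marker of the luminal prostate, was close to absent. It was at 0 in every heat shock library and reached 0.174 at baseline, and HOXB13, a prostate lineage factor, had 199 to 237 after heat shock and 159 to 200.4 at baseline. Epithelial KRT18 (1073 to 1193 after heat shock, 1062 to 1215 at baseline) and mesenchymal VIM (519 to 560.0 after heat shock, 473 to 509.9 at baseline) were both present. The summed level of 8 epithelial genes, 7 of them members, was 2731 to 3061 after heat shock and 3173 to 3380 at baseline, groups that do not overlap, and 1 of the 7 fell (CLDN4, a call lost without library 1 of either group, adjusted p up to 0.249). That of 7 mesenchymal genes was 957 to 1016 after heat shock and 901 to 1020.2 at baseline, with 1 fall, FN1. The part of these levels in the results was not tested. The whole list of 8 blood and immune genes had 1 member, CD68, and its summed level was 24.7 to 36.6 after heat shock and 31.0 to 43.0 at baseline. In bulk libraries fewer cells of a kind and less RNA per cell cannot be told apart.

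Heat shock was followed mainly by rises. Of the 9392 members 396 passed the test (limma, adjusted p under 0.05), which is 4.22%; over all 9831 genes fitted the calls were 402 (4.09%). There were 278 higher genes (2.96%) and 118 lower genes (1.26%), and 1436 members had an unadjusted p under 0.05. Among the calls 99 were at least 2-fold higher and 19 at least 2-fold lower. Groups that did not overlap were found in 1881 of the 9392 members, and in 274 of the higher and 113 of the lower calls. The median log2 fold change was 0.80 over the higher calls and -0.60 over the lower calls, against 0.00013 over all members. The count of lower calls changed with single libraries. It was 147 without heat shock library 3 and 108 without basal library 3, and it was 64 without basal library 1, 72 without basal library 2, 67 without heat shock library 1 and 72 without heat shock library 2.

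**Figure D1:**
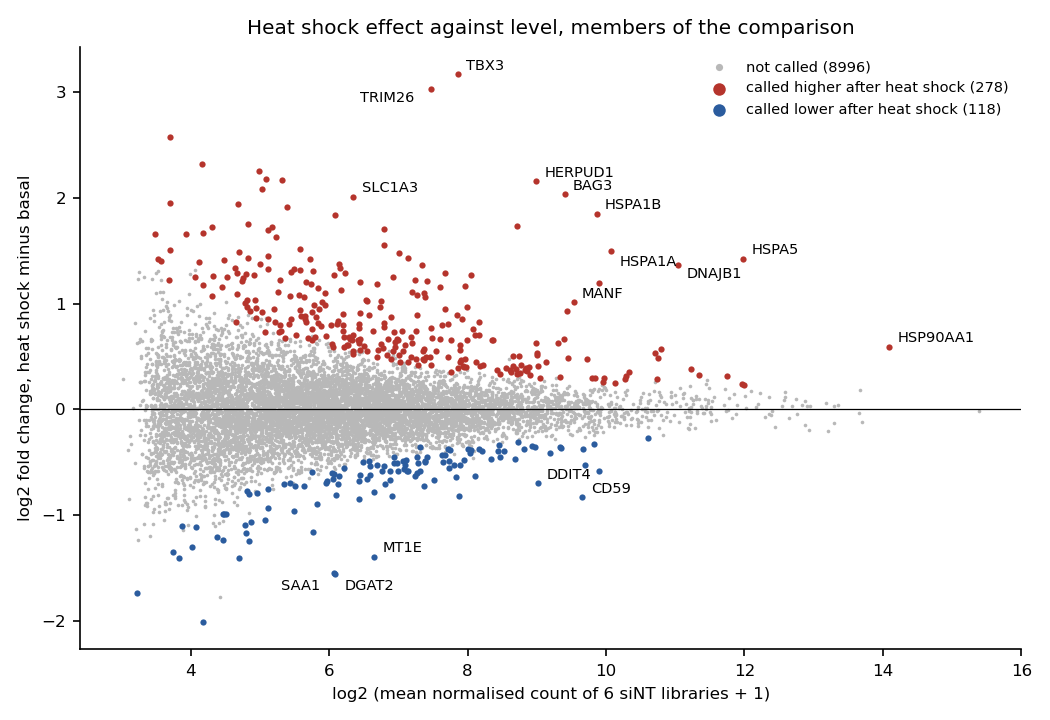
Each point is 1 of the 9392 members, with log2 of its mean normalised count over the 6 siNT libraries plus 1 on the x axis and the log2 fold change (heat shock minus basal) on the y axis. Red points are the 278 genes called higher, blue points the 118 called lower, and grey points were not called; TBX3 and TRIM26 stand above all other genes at about 3 on the y axis.

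The plot of effect against level shows fewer and larger calls at low levels. Among the 2348 members with the lowest means (up to 25.3 normalised counts), 25 rose by a median of 1.40 and 13 fell, with a median standard error (SE) of 0.33. Among the 2348 with the highest means (137 and above), 117 rose by a median of 0.51 and 52 fell, with a median SE of 0.11. A member could enter through heat shock alone and then had to differ. There were 28 members with 10 or more normalised counts in all 3 heat shock libraries and in 0 basal libraries, of which 9 were called higher, while 8305 members reached 10 in all 6 libraries. HECTD4 lay just inside the threshold with 10.005 as its third-highest value and KRBOX4 just outside it with 9.9999. The genes that rose spanned a median of 28.5 kb of the genome, those that fell 21.5 kb and all members 33.3 kb.

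TBX3, a T-box repressor of development, showed the largest rise of any member with a mean of at least 50. It had 443, 461 and 347 normalised counts after heat shock, against 48.5, 40.3 and 47.0 in the basal libraries. The groups stood far apart, with the lowest heat shock library more than 7-fold above the highest basal one. The log2 fold change was 3.17 ± 0.13 (SE), limma adjusted p = 7.24e-20. TBX3 lies on chromosome 12, 114670254 to 114684164 (GRCh38, GENCODE v29).

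TRIM26, a tripartite motif protein and ubiquitin ligase, lies on chromosome 6, 30184455 to 30213427. It had 329.7, 343 and 270.5 normalised counts after heat shock and 37.7, 25.7 and 54.1 at baseline, a log2 fold change of 3.03 ± 0.17 (limma adjusted p = 2.9e-16). HERPUD1, an ER membrane protein that organises the degradation of misfolded ER proteins, lies on chromosome 16, 56932048 to 56944863. Its levels were 866, 799 and 824 after heat shock and 187, 170.2 and 197 at baseline (2.16 ± 0.10, limma adjusted p = 1.23e-18). BAG3, which exchanges the nucleotide of HSP70 and guides clients to autophagy, lies on chromosome 10, 119651370 to 119677819. It had 965, 1078 and 1216 normalised counts after heat shock, against 267, 278 and 247 at baseline (2.03 ± 0.094, limma adjusted p = 2.19e-18). All 3 genes had groups that did not overlap, as did 1881 of all 9392 members. Neither TBX3 nor any of these 3 genes lost its call in any alternative run.

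In cells carrying an siRNA against JMJD6 (siJMJD6) and given the same heat shock, TBX3 had 205, 215 and 197 normalised counts and HERPUD1 255, 269 and 232. These values stand between the siNT heat shock and basal levels. The series holds no unstressed siJMJD6 library, so a weaker response to heat and a lower starting level cannot be told apart. The difference from siNT uses the same 3 siNT heat shock libraries as the comparison reported here.

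**Figure D2:**
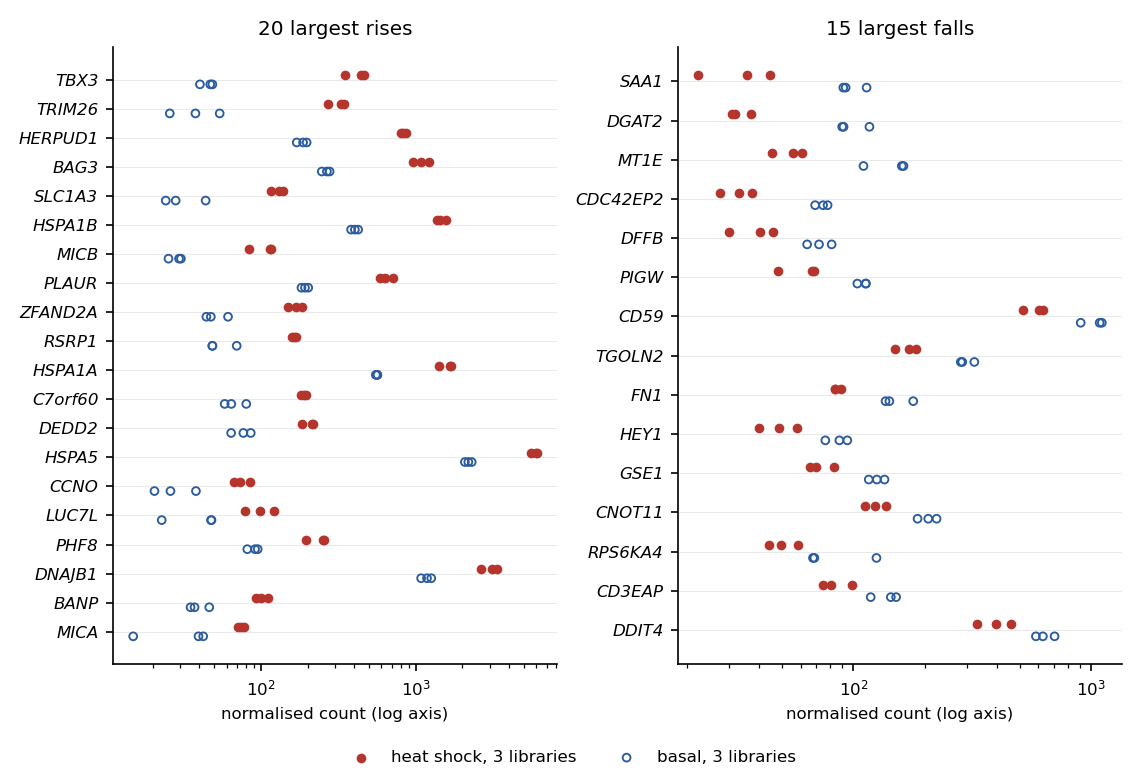
Normalised counts on a log x axis for the 20 largest rises (left) and 15 largest falls (right) among called genes with groups that did not overlap and a mean of at least 50. Filled red points are the 3 heat shock libraries and open blue points the 3 basal libraries of each gene; the colours do not mix in any row, as the choice of genes requires, and rows run from the largest change at the top.

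The other large rises joined genes of several functions, as the plot of counts by library shows. SLC1A3, a glutamate transporter of the plasma membrane, had 130.4, 139.6 and 117 normalised counts after heat shock and 24.3, 28.1 and 43.9 at baseline (2.01 ± 0.16). PLAUR, the urokinase receptor, had 589, 708 and 634 after heat shock and 202, 192 and 183 at baseline (1.74 ± 0.094). Both had groups far apart, and the choice of the largest rises required groups that do not overlap. MICB and MICA encode surface ligands that the NKG2D receptor of natural killer cells reads as a sign of stress. MICB had 84.1, 116 and 114 normalised counts after heat shock and 25.3, 30.4 and 29.6 at baseline (1.83 ± 0.17, limma adjusted p = 1.26e-09). MICA had 70.6, 74.5 and 77.3 after heat shock and 42.3, 39.5 and 14.9 at baseline (1.31 ± 0.24, limma adjusted p = 0.000487), with basal library 3 well below the other basal libraries. Without that library the MICA fold change was 0.84 (limma adjusted p = 0.0071). The paralogs are similar in sequence, so how reads were split between them is uncertain.

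Further down the order, RSRP1, an arginine and serine rich protein, changed by 1.56 ± 0.13, with the opposite-strand neighbour TMEM50A at means of 65.4 after heat shock and 63.2 at baseline. C7orf60, a sensor of S-adenosylmethionine upstream of mTORC1, rose by 1.48 ± 0.14, the death effector domain protein DEDD2 by 1.43 ± 0.13, the cyclin CCNO by 1.42 ± 0.21 and the DNA-binding protein BANP by 1.34 ± 0.17. Some genes at lower levels had larger fold changes than most of these and are named after their values were seen. TRIM16, another ubiquitin ligase, had 60.0, 68.2 and 63.4 normalised counts after heat shock and 9.06, 12.9 and 20.5 at baseline (2.17 ± 0.25), the guanylate-binding protein gene GBP3 64.8, 53.7 and 44.3 after heat shock and 11.8, 7.90 and 14.4 at baseline (2.18 ± 0.23), and placental growth factor PGF 38.8, 29.9 and 16.8 after heat shock and 6.19, 1.72 and 8.02 at baseline (2.32 ± 0.37, 1.31 with a pseudocount of 10). PGF also reached 10 through heat shock alone and so had to differ.

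Many cytosolic chaperone genes rose. Across the lists of HSP70, HSP40, HSP90 and BAG or small heat shock proteins, 23 of 55 members rose (41.8%, against 2.96% of all members), 0 fell and 32 were not called, and their median log2 fold change was 0.29. The inducible HSP70 gene HSPA1B had 1441, 1572 and 1369 normalised counts after heat shock and 404, 382 and 424 at baseline (1.85 ± 0.083, limma adjusted p = 1.23e-18). Its neighbour HSPA1A had 1407, 1662 and 1689.9 after heat shock and 565, 552 and 564 at baseline (1.495 ± 0.084). These genes are near-identical copies, so their separate levels are uncertain, while every heat shock value of either lay above every basal value. The HSP110 gene HSPH1, which acts as an exchange factor of HSP70, had 1353, 1361 and 1272 after heat shock and 601, 570.1 and 570.2 at baseline (1.19 ± 0.075). In all 5 of 8 HSP70 and HSP110 members rose, HSPA4L (1.02 ± 0.16) and HSPA4 (0.61 ± 0.11) being the others. The constitutive HSPA8 had a log2 fold change of 0.0056 ± 0.11 and was not called (adjusted p = 0.988).

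Of 17 HSP40 members, which bring clients to HSP70, 6 rose and 0 fell, and the median over the list was 0.15. DNAJB1, the main partner of inducible HSP70, had 2653, 3089 and 3356 normalised counts after heat shock and 1182, 1259 and 1083 at baseline (1.36 ± 0.078, limma adjusted p = 9.2e-16). DNAJB4 had 51.4, 58.3 and 44.9 after heat shock and 10.1, 8.31 and 16.9 at baseline (2.09 ± 0.30), the largest fold change of the list at a low level. DNAJB2 (1.26 ± 0.14), DNAJA4 (1.24 ± 0.27), DNAJA1 (0.70 ± 0.10) and DNAJB6 (0.42 ± 0.10) completed the calls. Of 17 members of the HSP90 list, which includes co-chaperones, 8 rose and 0 fell, with a list median of 0.25 and fold changes between 0.29 and 0.90 among the calls. HSP90AA1, the inducible HSP90, averaged 20909 ± 1138 normalised counts after heat shock and 13887 ± 1479 at baseline (SD, n = 3 each), a change of 0.59 ± 0.069. Its call ended under quantile normalisation (0.12, adjusted p = 0.395). CHORDC1, an HSP90 co-chaperone, had 84.0, 87.0 and 114 after heat shock and 57.3, 48.0 and 44.9 at baseline (0.90 ± 0.16), and NUDC, PTGES3, SUGT1, FKBP4, STIP1 and AHSA1 were the remaining calls. SUGT1, FKBP4, STIP1 and AHSA1 each lost the call in 3 to 6 alternatives. Over these the highest adjusted p was 0.0581 for SUGT1, 0.272 for FKBP4, 0.161 for STIP1 and 0.114 for AHSA1, and FKBP4 and AHSA1 also lost it under quantile normalisation and FKBP4 with the 6 siNT libraries fitted alone. Leaving out heat shock library 1 ended the calls of SUGT1, FKBP4 and STIP1, and leaving out library 2 those of FKBP4, STIP1 and AHSA1.

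Among 13 BAG and small heat shock protein members 4 rose and 0 fell. Beside BAG3 these were HSPB8, the small heat shock protein that pairs with it, at 182, 258 and 276 normalised counts after heat shock and 105, 88.0 and 112 at baseline (1.21 ± 0.14), HSPB1 (0.54 ± 0.077) and the low-level CRYAB, at 22.3, 23.7 and 19.7 after heat shock and 5.95, 4.38 and 9.13 at baseline (1.66 ± 0.36, 0.96 with a pseudocount of 10). CRYAB reached 10 normalised counts through heat shock alone and so had to differ; without it 22 of 54 cytosolic chaperone members rose (40.7%). Other folding machines had counts near the 4.22% of all members called, which in lists this short gives less than 1 call. None of 14 TRiC and prefoldin members was called (limma, 0 called, 4 with an unadjusted p under 0.05), the smallest p being that of CCT6A at 0.21 ± 0.076. Of 15 chaperones and proteases of mitochondria 0 rose and 1, the protease subunit AFG3L2, fell (-0.39 ± 0.11, adjusted p = 0.0448); leaving out any of the 6 siNT libraries other than heat shock library 3 ended that call, with adjusted p up to 0.327 over its alternatives.

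Genes of the ER formed the other large group. Of 24 ER chaperones and disulfide isomerases 12 rose and 0 fell, with a list median of 0.33. HSPA5 (BiP), the HSP70 of the ER and the main damper of its sensors, had 5562, 6044 and 6022 normalised counts after heat shock and 2185, 2298 and 2076 at baseline (1.43 ± 0.066, limma adjusted p = 2.57e-18). MANF, a secreted ER factor, had 1029, 1028 and 904 after heat shock and 515, 430.3 and 524 at baseline (1.01 ± 0.090), and SDF2L1, a cofactor of HSPA5, had 888, 976 and 856 after heat shock and 471, 502 and 455 at baseline (0.93 ± 0.085). For all 3 genes the lowest heat shock library was far above the highest basal library. The ER HSP40 genes DNAJB9 (1.30 ± 0.23) and DNAJB11 (0.66 ± 0.10), the ER HSP90 gene HSP90B1 (0.57 ± 0.076) and the disulfide isomerase PDIA4 (0.67 ± 0.10) were also called. PDIA3, CALR, P4HB, HYOU1 and PDIA6 rose by 0.30 to 0.51. P4HB lost its call without library 1 of either group (adjusted p up to 0.0682) and PDIA6 without library 2 of either (up to 0.153). HYOU1 (adjusted p = 0.0483) lost it in 9 alternatives, among them each of heat shock libraries 1, 2 and 3 and basal libraries 1 and 2 (up to 0.298).

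Other ER lists held fewer calls. Of 23 members of ER-associated degradation 3 rose (13.0%, against 2.96% of all members) and 0 fell. These were HERPUD1, SEL1L, the scaffold of the HRD1 ligase, at 136, 178 and 139.7 normalised counts after heat shock and 97.1, 95.7 and 78.8 at baseline (0.73 ± 0.15), and SELK, a selenoprotein of the ER membrane (0.61 ± 0.13). Of 29 members of ER translocation and of 25 coat subunits of vesicles 0 were called (limma; 3 and 2 with an unadjusted p under 0.05), which is near what 4.22% of lists this short would give. Among 20 sensors and transcription factors of the unfolded protein response 4 rose and 1 fell. EIF2AK3, which encodes the sensor PERK, had 155, 137 and 133 after heat shock and 78.7, 65.0 and 45.7 at baseline (1.18 ± 0.16). DDIT3, which encodes CHOP, had 324, 285 and 288 after heat shock and 169, 174 and 139 at baseline (0.90 ± 0.12), and XBP1 changed by 0.41 ± 0.10. The XBP1 call ended without basal library 2 or heat shock library 3 (adjusted p = 0.0951 at most), and that of CEBPG (0.55 ± 0.16) in 8 of the alternatives (adjusted p up to 0.201).

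The gene for ATF4, whose protein is controlled at translation, went the other way. ATF4 had 560.3, 567 and 586 normalised counts after heat shock and 789.6, 749 and 667 at baseline (-0.36 ± 0.092, limma adjusted p = 0.015), and without library 1 or 2 of either group its adjusted p lay between 0.0569 and 0.141. Of 23 ATF4 and CHOP targets 3 rose (13.0%, against 2.96% of all members) and 1 fell (4.35%, against 1.26%), with a median of 0.14. SESN2, a leucine sensor that restrains mTORC1, had 321, 301 and 309 after heat shock and 161, 198 and 159 at baseline (0.85 ± 0.12). DDIT4, another inhibitor of mTORC1, had 331, 459 and 398 after heat shock and 586, 702 and 627 at baseline (-0.70 ± 0.11), with no overlap in the opposite direction. CHAC1, which degrades glutathione, and PHGDH, an enzyme of serine synthesis, were called higher at 0.74 ± 0.21 and 0.42 ± 0.12. Both of these calls ended without any of basal libraries 1, 2 and 3 or of heat shock libraries 1 and 2 (adjusted p up to 0.221).

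**Figure D3:**
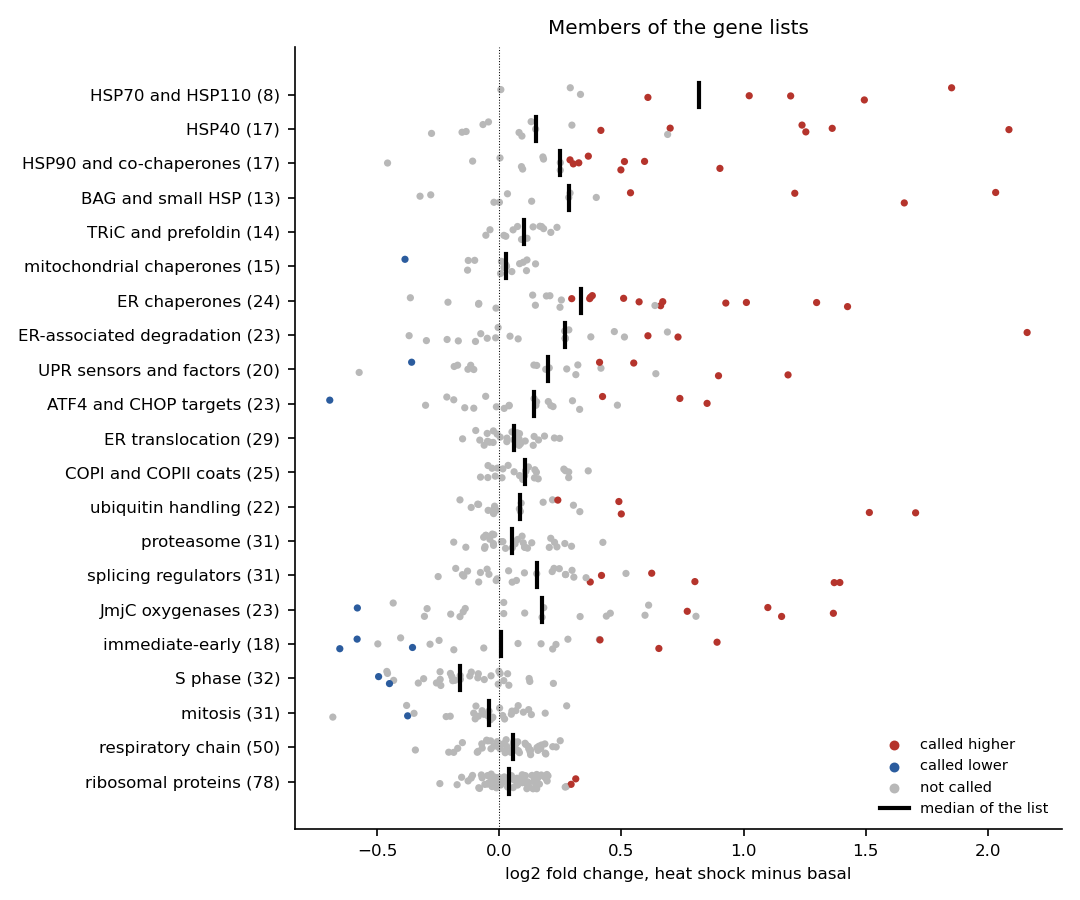
Log2 fold change (heat shock minus basal, x axis) of the members of 21 gene lists (rows, number of members in brackets), with called higher genes in red, called lower genes in blue, genes not called in grey and the list median as a black bar. Red points gather in the cytosolic and ER chaperone rows, while the rows for TRiC, ER translocation, vesicle coats, the proteasome and the respiratory chain hold grey points alone.

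The promoters of the genes that rose were compared with the elements named above, since the heat shock and ER stress responses are known to act through different ones. Promoter windows of 250 bases before to 50 bases after a gene start (RefSeq, GRCh38.p14) were matched to 7751 of the 9392 members by symbol, with a mean of 1.52 windows for genes that rose and 1.47 for all members. Among list genes that rose it was 1.4 for HSP70, 1.83 for HSP40, 1.43 for HSP90 and 1.0 for BAG and small heat shock proteins. For ER chaperones it was 1.18 and for ER-associated degradation 1.0. More windows give more places for a match, and the part of this in the shares was not tested. Capitals mark matches, searched on both strands, to the 2-unit heat shock element GAANNTTC or TTCNNGAA, to its 3-unit form, which repeats the first unit after a further pair of free bases, takes in 1 free base at each end and contains the 2-unit one, to the ER stress response element, which is CCAAT followed after 9 free bases by CCACG, to its form II, which is ATTGG followed after 1 free base by CCACG, and to the ATF4 and C/EBP element TGATGNAA. The sequences of a cytosolic set (HSPA1B, HSP90AA1 and CHORDC1) and an ER set (HERPUD1, HSPA5 and SDF2L1) are shown 5' to 3' because they carry the contrast, with 2 leading genes, TRIM26 and BAG3, whose windows held no match. A match is a string of letters and does not show binding.
HSPA1B: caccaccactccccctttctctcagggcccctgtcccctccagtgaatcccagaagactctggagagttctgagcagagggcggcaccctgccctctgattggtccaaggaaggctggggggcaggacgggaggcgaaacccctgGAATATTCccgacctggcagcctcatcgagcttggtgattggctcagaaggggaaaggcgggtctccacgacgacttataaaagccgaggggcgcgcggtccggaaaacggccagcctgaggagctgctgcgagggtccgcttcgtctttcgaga
HSP90AA1: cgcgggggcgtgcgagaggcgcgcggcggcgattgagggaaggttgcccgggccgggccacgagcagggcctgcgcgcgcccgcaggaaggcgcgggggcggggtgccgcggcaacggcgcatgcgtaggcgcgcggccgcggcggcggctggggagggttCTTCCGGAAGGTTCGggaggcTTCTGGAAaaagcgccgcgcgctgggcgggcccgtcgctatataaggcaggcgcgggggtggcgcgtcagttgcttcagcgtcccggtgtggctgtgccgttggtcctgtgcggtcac
CHORDC1: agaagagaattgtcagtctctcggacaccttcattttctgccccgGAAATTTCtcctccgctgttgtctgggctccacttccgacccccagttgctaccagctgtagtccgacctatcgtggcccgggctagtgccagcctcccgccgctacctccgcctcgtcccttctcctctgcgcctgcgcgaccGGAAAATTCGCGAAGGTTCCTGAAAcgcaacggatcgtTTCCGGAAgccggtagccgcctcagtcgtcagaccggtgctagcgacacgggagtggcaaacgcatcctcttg
HERPUD1: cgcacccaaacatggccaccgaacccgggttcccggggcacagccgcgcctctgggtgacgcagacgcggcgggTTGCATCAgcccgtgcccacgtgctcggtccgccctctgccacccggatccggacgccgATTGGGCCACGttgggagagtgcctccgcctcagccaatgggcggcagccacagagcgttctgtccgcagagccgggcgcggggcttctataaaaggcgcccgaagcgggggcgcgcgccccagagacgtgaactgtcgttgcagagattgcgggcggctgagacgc
HSPA5: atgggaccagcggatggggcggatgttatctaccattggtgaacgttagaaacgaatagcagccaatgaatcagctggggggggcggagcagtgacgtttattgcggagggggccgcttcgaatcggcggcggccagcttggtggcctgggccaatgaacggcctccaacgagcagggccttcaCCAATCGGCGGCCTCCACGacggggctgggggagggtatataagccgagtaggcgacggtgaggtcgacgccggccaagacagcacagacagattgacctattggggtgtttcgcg
SDF2L1: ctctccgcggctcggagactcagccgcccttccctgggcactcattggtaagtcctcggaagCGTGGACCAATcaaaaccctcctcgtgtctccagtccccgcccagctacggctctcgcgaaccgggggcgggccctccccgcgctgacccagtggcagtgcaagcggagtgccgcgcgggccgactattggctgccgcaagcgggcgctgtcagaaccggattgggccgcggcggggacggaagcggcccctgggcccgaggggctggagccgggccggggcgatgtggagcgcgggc
TRIM26: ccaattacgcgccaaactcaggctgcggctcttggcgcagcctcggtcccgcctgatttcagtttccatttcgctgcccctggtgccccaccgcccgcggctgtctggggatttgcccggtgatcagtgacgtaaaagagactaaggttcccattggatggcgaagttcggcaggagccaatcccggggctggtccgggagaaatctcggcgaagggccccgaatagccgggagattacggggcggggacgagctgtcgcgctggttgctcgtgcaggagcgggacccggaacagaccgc
BAG3: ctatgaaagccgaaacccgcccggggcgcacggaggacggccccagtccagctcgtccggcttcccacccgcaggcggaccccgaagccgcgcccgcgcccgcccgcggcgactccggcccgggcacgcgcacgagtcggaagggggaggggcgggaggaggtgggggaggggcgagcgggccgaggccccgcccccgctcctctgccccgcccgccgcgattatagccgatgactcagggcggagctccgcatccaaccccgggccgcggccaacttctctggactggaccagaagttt
The windows are, in this order, chr6:31827488-31827787, plus strand; chr14:102086995-102087294, minus strand; chr11:90223000-90223299, minus strand; chr16:56931892-56932191, plus strand; chr9:125241294-125241593, minus strand; chr22:21642052-21642351, plus strand; chr6:30213357-30213656, minus strand; and chr10:119651130-119651429, plus strand.

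The cytosolic and ER genes that rose carried different letters. Of 21 cytosolic chaperone genes that rose and had a window, 15 (71.4%) held a 2-unit heat shock element in at least 1 window, against 3 of 25 in the same lists that did not rise and 1055 of all 7751 members (13.6%). Of 14 ER chaperone and degradation genes that rose, 0 held that element, against 5 of 28 that did not rise. The ER stress response element or its form II was in 7 of these 14, in 2 of 28 ER genes that did not rise (7.14%) and in 0 of the 21 cytosolic genes. The element in the HSPA1B window starts 105 bases before the gene start, and the CHORDC1 window has 3 overlapping 3-unit elements from 61 bases before the start. In HERPUD1 the form II element starts at 117 bases before the gene start, and in HSPA5 the ER element starts at 66 bases.

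**Figure D4:**
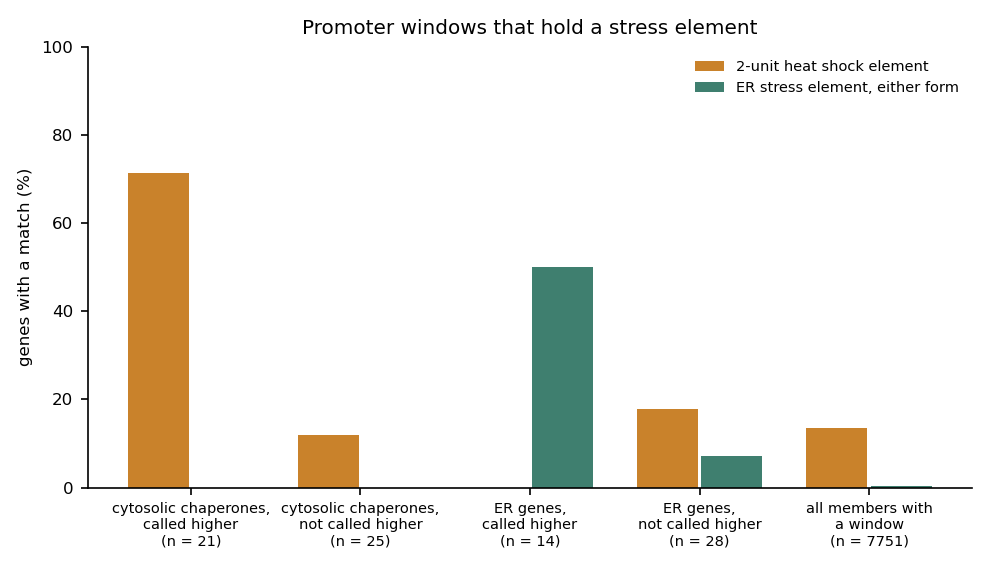
Share of genes (%, y axis) with at least 1 promoter window that holds the 2-unit heat shock element (orange) or either form of the ER stress response element (green), for cytosolic chaperones and ER genes called or not called higher after heat shock and for all 7751 members with a window. The orange bar is 71.4% in the first set and absent in the ER genes called higher, where the green bar stands for 7 of 14 genes.

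Read from the side of the elements, 23 members held either ER stress response element, and 8 of them rose (34.8%, against 2.96% of all members), 0 fell and 15 were not called. The 8 were HERPUD1, HSPA5, SDF2L1, HSP90B1, CALR, PDIA6, HYOU1 and XBP1, of which HYOU1, PDIA6 and XBP1 lost their calls in alternatives given with them. Of all windows 0.0769% held the ER element and 0.0541% its form II. The 2-unit heat shock element was in 13.5% of all 35116 windows, so single matches were common. Of the 1055 members with one 59 rose (5.59%), against 169 of 6696 members without one (2.52%). The 3-unit form was in 0.478% of windows and in 36 members. Of these 36 members 5 rose (13.9%, against 2.96% of all members), namely CHORDC1, DNAJA1, DNAJB6, HSP90AA1 and PHF8. The ATF4 and C/EBP element was in 11 of 228 genes that rose and had a window (4.82%), against 205 of all 7751 members (2.64%).

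Ubiquitin handling joined in part. Of 22 members 5 rose (22.7%, against 2.96% of all members) and 0 fell, with a list median of 0.084. ZFAND2A, a zinc finger protein that binds the proteasome under stress, had 149.9, 185 and 168 normalised counts after heat shock and 61.3, 44.4 and 47.4 at baseline (1.71 ± 0.16, limma adjusted p = 9.13e-10). The conjugating enzyme UBE2D1 averaged 69.5 ± 10.1 normalised counts after heat shock and 24.1 ± 6.92 at baseline (SD, n = 3 each; 1.52 ± 0.20). Both were clear of the basal range. The ubiquitin gene UBB rose by 0.49 ± 0.071, and the conjugating enzyme UBE2B by 0.50 ± 0.11. None of 31 proteasome subunits was called (limma, 3 with an unadjusted p under 0.05), and PSMB3 came nearest at 0.42 ± 0.16.

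Splicing regulators and JmjC oxygenases also held rises. Of 31 splicing members 6 rose (19.4%, against 2.96% of all members) and 0 fell, with a list median of 0.15. LUC7L, a partner of the U1 particle, had 122, 79.0 and 98.8 normalised counts after heat shock and 47.9, 47.5 and 22.8 at baseline (1.37 ± 0.21), and RBM25, which also contacts U1, had 811, 751 and 723 after heat shock and 506, 563 and 421 at baseline (0.62 ± 0.10). The kinase CLK4, which phosphorylates SR proteins, had 25.2, 27.4 and 19.9 after heat shock and 10.1, 5.94 and 10.2 at baseline (1.39 ± 0.31, 0.87 with a pseudocount of 10), and CLK1, LUC7L3 and SRSF11 were the other calls. SRSF11 lost its call without basal library 3 or heat shock library 1 (adjusted p up to 0.0629), LUC7L3 without basal library 2 or 3 or heat shock library 1 (up to 0.165) and CLK1 in 5 alternatives (up to 0.2998). JmjC proteins are oxygenases, many of which remove methyl groups from histones. Of 23 members 4 rose (17.4%, against 2.96% of all members) and 1 fell (4.35%, against 1.26%). JMJD6 itself, which siRNA targets in other libraries of the series, had 209, 210.2 and 253 after heat shock and 102, 105 and 104 at baseline (1.10 ± 0.18, limma adjusted p = 0.000103). HSF1 had 1261, 1145 and 1190.3 after heat shock and 1200.4, 1199 and 1175 at baseline (0.0078 ± 0.073, adjusted p = 0.98), and its groups overlapped. The demethylase genes PHF8 (194, 257 and 251 after heat shock, 95.3, 81.6 and 91.6 at baseline, 1.37 ± 0.12) and KDM5A (1.16 ± 0.12) rose with JMJD1C (0.77 ± 0.14), while C14orf169, a nucleolar hydroxylase of ribosomal protein, fell (-0.58 ± 0.12). None of 21 histone methyltransferase members was called (limma, 2 with an unadjusted p under 0.05).

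Signalling genes moved in both directions. Of 18 AP-1 and immediate-early members 3 rose (16.7%, against 2.96% of all members) and 3 fell (16.7%, against 1.26%). IER5, a regulator of HSF1 activity, had 169, 207 and 222 normalised counts after heat shock and 103, 104 and 112 at baseline (0.89 ± 0.12). KLF6, a zinc finger factor, rose by 0.65 ± 0.12 and the survival gene MCL1 by 0.41 ± 0.086. IER2, of the same family as IER5, had 694, 773 and 826 after heat shock and 1049, 1237 and 1149.8 at baseline, a change of -0.58 ± 0.081. IER5L had -0.65 ± 0.15 and MYC -0.36 ± 0.10; the first call ended without basal library 3 (adjusted p = 0.065) and the second in 5 alternatives (adjusted p up to 0.242). Among 18 growth arrest genes and CDK inhibitors 4 rose (22.2%, against 2.96% of all members) and 0 fell. The CDK4 and CDK6 inhibitor CDKN2C led them, at 119, 101 and 96.5 after heat shock and 41.3, 40.9 and 44.6 at baseline (1.29 ± 0.15). BTG1, which slows proliferation, rose by 0.50 ± 0.10. CDKN2B (0.48 ± 0.13) and BTG3 (0.47 ± 0.14) each lost the call in at least 4 alternatives, with adjusted p up to 0.112 and 0.215.

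Falls were fewer and smaller. SAA1, an acute phase gene, had 35.7, 44.7 and 22.3 normalised counts after heat shock and 90.8, 92.8 and 114 at baseline (-1.55 ± 0.27, limma adjusted p = 0.000159); its copy SAA2 is nearly identical, so the split between them is uncertain. DGAT2, the last enzyme of triglyceride synthesis, had 30.8, 37.0 and 31.8 after heat shock and 91.0, 117 and 89.8 at baseline (-1.54 ± 0.18, limma adjusted p = 1.86e-07). It was the only call among 28 members of cholesterol and fatty acid synthesis (3.57% lower, against 1.26% of all members). MT1E, a metal-binding metallothionein from a family of similar copies, had 45.3, 60.6 and 56.0 after heat shock and 110.3, 163 and 159.9 at baseline (-1.39 ± 0.24), and 0 of the other 3 metallothionein members was called. In these genes every heat shock library lay below every basal library, as the choice of the largest falls requires.

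CDC42EP2, an effector of the GTPase CDC42, had 37.6, 33.1 and 27.5 normalised counts after heat shock and 74.6, 69.1 and 77.9 at baseline (-1.16 ± 0.19). CD59, which protects cells from complement and is held by a glycosylphosphatidylinositol anchor, had 516, 602 and 629 after heat shock and 904, 1109 and 1086 at baseline (-0.83 ± 0.087, limma adjusted p = 1.3e-08). PIGW, an enzyme that builds that anchor, had 48.2, 67.3 and 68.1 after heat shock and 104, 113 and 113 at baseline (-0.85 ± 0.15), and its opposite-strand neighbour MYO19 had means of 58.2 after heat shock and 76.1 at baseline. The part of MYO19 reads in this value was not tested. TGOLN2 of the trans-Golgi network changed by -0.82 ± 0.12, CNOT11 of the deadenylase complex CCR4-NOT by -0.72 ± 0.11, the apoptotic nuclease gene DFFB by -0.90 ± 0.20 and the kinase gene RPS6KA4 by -0.71 ± 0.19. DFFB lost its call without heat shock library 1 (adjusted p = 0.0552), and RPS6KA4 without basal library 3 or heat shock library 1 or 2 (adjusted p up to 0.269, with a fold change of -0.42 without basal library 3). GSE1 (-0.78 ± 0.17) and CD3EAP, a subunit of RNA polymerase I (-0.70 ± 0.14), completed the 15 largest falls with the matrix gene FN1 and the Notch target HEY1. CNOT11, GSE1 and CD3EAP also have opposite-strand neighbours in the table.

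Large housekeeping lists are given beside the shares over all members, 2.96% higher and 1.26% lower. Of 50 nuclear-encoded subunits of the respiratory chain 0 were called (limma, 4 with an unadjusted p under 0.05), and the list median was 0.057. Of 78 ribosomal protein members 2 rose (2.56%), RPS9 (0.31 ± 0.069) and RPL41 (0.29 ± 0.078), and 0 fell; RPL41 lost its call without library 1 or 2 of either group (adjusted p up to 0.149). DNA replication and S phase genes had a median of -0.16 over 32 members, with 2 falls (6.25%), FEN1 (-0.50 ± 0.12) and MCM4 (-0.45 ± 0.12), and 0 rises. Without library 1 of either group FEN1 was no longer called (adjusted p up to 0.0893), nor was MCM4 without library 1 or 2 of either group (up to 0.101). Mitotic genes had 1 fall among 31 members (3.23%), the phosphatase CDC25B (-0.38 ± 0.092), and 0 rises. Of 189 zinc finger (ZNF) members 5 rose (2.65%) and 1 fell, a share close to the 2.96% of all members. Of 19 NRF2 target, haem and iron members 1 fell (5.26%), SRXN1 (-0.41 ± 0.11). The SRXN1 call ended without library 1 or 2 of either group (adjusted p up to 0.137). Of 13 TGF-beta and BMP members and of 7 replication-dependent histone members 0 were called (limma, 4 and 1 with an unadjusted p under 0.05).

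The remaining lists held 0 to 2 calls each. Of 11 NF-kB and acute phase members 2 fell (18.2%, against 1.26% of all members), SAA1 and the calcium-binding S100A9 (20.2, 23.3 and 24.3 normalised counts after heat shock, 50.4, 31.5 and 53.2 at baseline, -0.93 ± 0.21), and 0 rose. Of 12 interferon response members 1 rose (8.33%, against 2.96% of all members), the signal transducer STAT2 (38.7, 53.9 and 42.4 after heat shock, 12.8, 15.1 and 23.4 at baseline, 1.38 ± 0.27). The MAP kinase phosphatase DUSP16 (0.88 ± 0.23) was the 1 rise among 13 phosphatases and feedback inhibitors (7.69%, against 2.96%). It lost the call in 4 alternatives (adjusted p up to 0.115). Of 28 hypoxia and glycolysis members 1 rose (3.57%, near the 2.96% of all members), the collagen prolyl hydroxylase P4HA1. Ribosome biogenesis had 1 rise (NOP10) and 1 fall (RRS1) among 40 members (2.5% each). Both calls were lost without library 1 or 2 of either group (adjusted p up to 0.310). Of 56 antisense transcripts 0 rose and 2 fell (3.57%, against 1.26% of all members). Of 48 LINC and snoRNA host genes 1 rose (2.08%, against 2.96%) and 0 fell. The falls were MAFG-AS1 (-0.96 ± 0.20) and NCK1-AS1 (-0.99 ± 0.27) and the rise was SNHG25 (0.35 ± 0.094). NCK1-AS1 lost its call in 6 alternatives (adjusted p up to 0.141), and SNHG25 without library 1 or 2 of either group (up to 0.151).

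Another proteotoxic stress was given to cells that the labels also call PC3M, in libraries of their own, and the heat shock calls were set beside it. Here siNT cells received the proteasome inhibitor MG132 at 2.5 µM for 4 h (n = 2) or the solvent DMSO (n = 2), in a table normalised on its own, and no test was made across the tables. The unstressed libraries of the tables differed for some genes, at levels set across separate normalisations. MT1E was at 0 in both DMSO libraries, against 110.3 to 163 in the siNT basal libraries, SAA1 had 0.779 and 1.23 against 90.8 to 114, and FN1 had 10.4 and 11.2 against 137 to 179. HSPA5 was alike, at 2138 and 1596 in the DMSO libraries and 2076 to 2298 in the basal ones. The titles mark the MG132 and DMSO libraries X1 and X2, a mark the heat shock libraries do not carry, and how far the cells of the tables differ beyond the stress was not tested. The fit shared its spread over all 8 libraries of that table, which include siJMJD6 and HSF1 knockout cells given MG132. With these few libraries the median SE was 0.38, and 26 of 9778 genes were called (0.266%). A fit without the HSF1 knockout libraries took X1 and X2, which the titles share between DMSO and MG132, as a replicate block. It called 39 genes, and the part of the block alone was not tested. The count was 12 without DMSO library 1 or 2 and 10 without MG132 library 1. All 26 were members of the heat shock comparison (0.286% of the 9103 members fitted there). Of them 18 were called after heat shock too, which is 69.2% of the MG132 calls and 4.55% of the heat shock calls, and 16 of the 18 went the same way. TBX3 changed by 3.69 ± 0.37 after MG132 and TRIM26 by 2.72 ± 0.32, beside 3.17 and 3.03 after heat shock. HSPA1B changed by 3.69 ± 0.30 after MG132, DNAJB1 by 2.66 ± 0.25 and BAG3 by 2.61 ± 0.43, beside 1.85, 1.36 and 2.03 after heat shock.

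Across the 268 genes that rose after heat shock and were fitted in the MG132 table, 220 had an MG132 fold change above 0 (82.1%, against 49.3% of all members fitted there), with a median of 0.44. At least 2-fold higher after MG132 were 56 of them (20.9%, against 1.98% of all members). The 111 genes that fell after heat shock had a median of -0.10 after MG132, and 67 of them were below 0. The 21 cytosolic chaperone genes that rose after heat shock and were fitted had medians of 0.90 after MG132 and 0.70 after heat shock, and 10 of them were at least 2-fold higher after MG132. The 15 ER genes that rose had medians of 0.21 after MG132 and 0.66 after heat shock, 2 were at least 2-fold higher after MG132 and 0 were called there. HERPUD1 had 1.11 ± 0.29 after MG132 (adjusted p = 0.288) and HSPA5 1.22 ± 0.28 (adjusted p = 0.166), while HSP90B1 had -0.033 ± 0.36. The dose and duration of the stresses differ, and the difference between them was not tested.

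**Figure D5:**
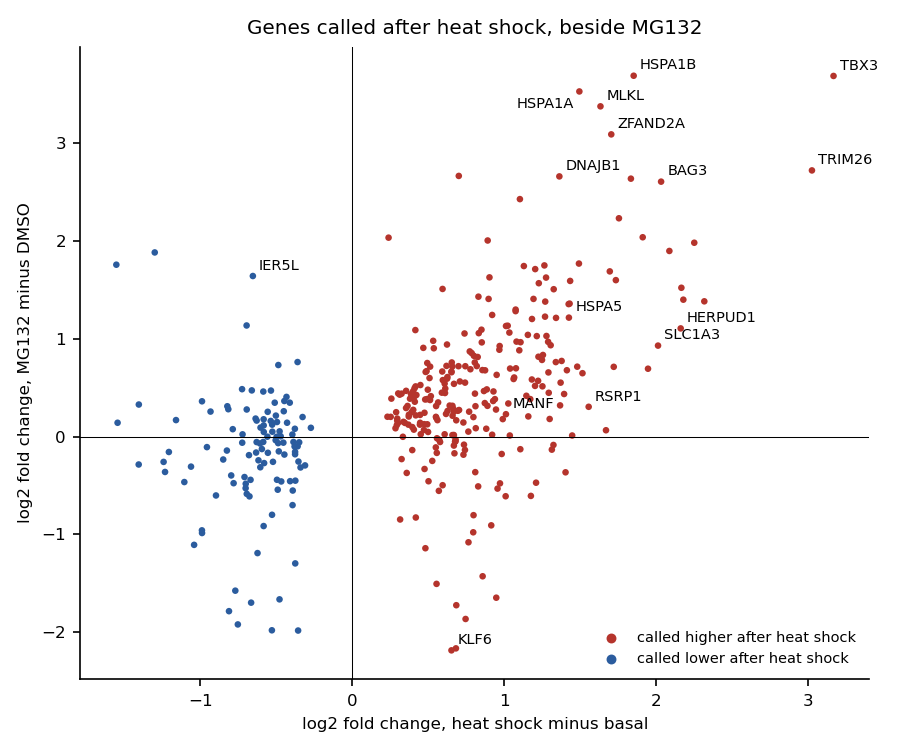
Log2 fold change after heat shock (heat shock minus basal, x axis) and after MG132 (MG132 minus DMSO, y axis) for the genes called after heat shock and fitted in both tables, with higher calls in red and lower calls in blue. Of 268 red points 220 lie above 0 on the y axis; KLF6 and IER5L are called in opposite directions by the stresses.

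As the plot of both stresses shows, KLF6 and IER5L went opposite ways. KLF6 rose after heat shock (0.65 ± 0.12) and fell after MG132 (-2.19 ± 0.37, limma adjusted p = 0.0206). IER5L fell after heat shock (-0.65 ± 0.15) and rose after MG132 (1.64 ± 0.26, limma adjusted p = 0.0143). The 8 genes called after MG132 and not after heat shock were DUSP6, FST, FZD8, GADD45B, HES1, HMOX1, PPP1R15A and TXNIP. HMOX1, the haem oxygenase, had a heat shock fold change of 0.090 ± 0.16 and an MG132 one of 2.45 ± 0.38. For PPP1R15A, which reverses the block of translation in stress, these were 0.28 ± 0.15 and 2.56 ± 0.28.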

How the data were processed

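Total RNA (RNeasy) gave QuantSeq FWD libraries from 100 ng RNA, per the labels' protocols. Per the submitters' processing notes, the tools were FastQC 0.11.2, STAR 2.6.0 and HTSeq on build hg38 (annotation, strand setting, scaling and gene filter: not given in the sources used here). Deposited signal values are the authors' normalised counts, not whole numbers, so a count model was not used; the heat shock and MG132 tables were normalised separately. Log2 values of the normalised count plus a pseudocount of 1 entered a limma fit (version 3.58.1, R 4.3.3, variance trend) over all 9 libraries of the heat shock table, which share 1 spread per gene. The fit held 9831 genes with 10 or more in at least 3 of 9 libraries; p-values were adjusted over all of them (Benjamini-Hochberg), and calls needed an adjusted p under 0.05. The MG132 table was fitted alike over 8 libraries (9778 genes, 10 or more in at least 2), which include siJMJD6 and HSF1 knockout cells given MG132. The script was tested on simulated data. The labels name no separate cultures for the replicates. The p-values therefore reflect only how far these libraries differ, which may be technical. Effects are log2 fold changes ± SE on the log2(value + 1) scale, which understates changes of low genes. The members, the 40 gene lists (5 more were added after values were seen), the motifs and the rule for naming genes (TBX3, TRIM26, HERPUD1, BAG3, JMJD6, HSF1; the 20 largest rises and 15 largest falls with a mean of at least 50 and no overlap; up to 4 called genes of each list and direction) were chosen with earlier results of these data known. Other genes were named after their values were seen. Alternatives were a pseudocount of 10, no filter, TMM, quantile normalisation, the 6 siNT libraries alone, a replicate block and each library left out. Positions are from GENCODE v29 (GRCh38). Some genes of the lists are not reported here.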

Additional observations from a re-analysis of the deposited data

How the results depend on the processing

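No call reported for heat shock changed direction in any alternative. The number of members called was 421 with a pseudocount of 10, 349 with no filter on low values, 401 with TMM scaling, 384 with quantile normalisation and 372 with the 6 siNT libraries fitted alone, against 396. TMM scaling gave 262 higher and 139 lower genes (65.3% higher, against 70.2%), and it moved the median log2 fold change of all members by -0.018. Leaving out 1 of the 9 libraries gave 266 to 423 calls, 194 to 283 higher and 64 to 147 lower. A fit that leaves out a library assumes that the remaining ones vary alike. With a replicate block 414 members were called, 292 higher and 122 lower, of which 391 were among the 396. The labels of the heat shock table give numbers only, and the deviations of same-numbered heat shock and basal libraries correlated at -0.012, 0.020 and -0.007, so the numbers were not used as pairs. In the MG132 comparison the count was 26 with a pseudocount of 10, 39 with a replicate block (X1 and X2 of the titles, whose meaning is not stated) and 10 to 32 with 1 library left out. The block fit of the MG132 comparison also left out the HSF1 knockout libraries. In the heat shock comparison the median SE was 0.33 over the 2348 members of lowest level and 0.11 over the 2348 of highest level. The part of depth in this was not tested.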

Other observations

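Some further groups were chosen after their values were seen, so their counts describe these libraries and support nothing else. Enzymes that modify collagen in the ER held rises. Of 12 members 5 were called higher (41.7%, against 2.96% of all members) and 0 lower, with a list median of 0.059. Another 3, not called, were lower with an unadjusted limma p under 0.05, P3H1 (-0.60 ± 0.27), P3H4 (-0.53 ± 0.19) and COLGALT1 (-0.21 ± 0.079). The 5 calls were P4HA2 (154, 156 and 149.9 normalised counts after heat shock, 109.9, 102 and 79.0 at baseline, 0.67 ± 0.13), P4HA1 (0.45 ± 0.082), PLOD1 (0.39 ± 0.10), PLOD2 (0.45 ± 0.13) and P4HB, which is also an ER disulfide isomerase. PLOD1 and PLOD2 lost their calls in 3 and 10 alternatives (adjusted p up to 0.0876 and 0.214). Among 19 extracellular matrix members 0 rose and 4 fell (21.1%, against 1.26% of all members). Fibronectin (FN1) had 88.9, 83.6 and 84.1 normalised counts after heat shock and 179, 137 and 142 at baseline (-0.82 ± 0.15), and agrin (AGRN) had 110.0, 101 and 123 and 158, 173 and 169 (-0.58 ± 0.12). COL4A1 (-1.35 ± 0.37, -0.75 with a pseudocount of 10) and TGFBI (-1.17 ± 0.35) lost their calls in 4 and 7 alternatives (adjusted p up to 0.146 and 0.199).

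Of 11 members of the Notch pathway 0 rose and 3 fell (27.3%, against 1.26% of all members). They were the target HEY1 (57.9, 40.1 and 48.8 normalised counts after heat shock, 94.4, 87.4 and 76.3 at baseline, -0.81 ± 0.17), the glycosyltransferase LFNG, which tunes the receptor (-1.06 ± 0.23), and NRARP (-0.61 ± 0.16), whose call ended without basal library 3 or heat shock library 1 (adjusted p up to 0.218). HES1, another Notch target, had 0.054 ± 0.13 and was not called. Of 19 cytosolic aminoacyl-tRNA synthetases 2 rose (10.5%, against 2.96% of all members) and 0 fell. The 2 were TARS (0.35 ± 0.077) and CARS, whose call ended in 10 alternatives (adjusted p up to 0.276). The kinase CDK12 and the coactivator CREBBP, also picked after their values were seen, rose, CDK12 at 0.95 ± 0.19 and CREBBP at 0.81 ± 0.17. The necroptosis gene MLKL had 58.1, 52.5 and 55.6 after heat shock and 18.2, 13.5 and 20.5 at baseline (1.63 ± 0.23), and its MG132 fold change was 3.38 ± 0.54.

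Several leading genes are neighbours. Between 28 and 34 Mb of chromosome 6, which includes the major histocompatibility complex, 8 of 84 members rose (9.52%, against 2.96% of all members) and 0 fell. The 8 were ZNF165, TRIM26, PPP1R10, MICA, MICB, HSPA1A, HSPA1B and BRD2, and the region was chosen after their positions were seen.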
